A study of Homo sapiens with 24 samples.

Results

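This account covers 10 genes for integrin subunits found on leukocytes, ITGAL, ITGAM, ITGAX and ITGB2, ITGA4, ITGA5, ITGA6 and ITGB1, and ITGB7 and ITGB3. They were taken by name, with no threshold on a measured value, but with earlier results of these data known. Shares of the 10 set against all genes are therefore descriptive. All 10 were measured, among 18417 genes. The cells were THP-1, an established human monocytic leukaemia line, and total RNA was hybridised to 24 Affymetrix Human Gene ST arrays. Every line carried a pSLIK_Neo lentiviral cassette with a tetracycline-inducible (TRE) promoter. The cassette held 3X FLAG-tagged NOD1, 3X FLAG-tagged NLRP4, or no insert (vector alone). NOD1 senses fragments of bacterial peptidoglycan in the cytosol, and NLRP4 belongs to the same family of NOD-like receptors. Virus was used at low copy, cells were selected with G418, and the labels name 1 line per construct. Cells at 50000 per well were left uninduced or received doxycycline (DOX) at 1 µg/ml for 6 h, which gave 6 groups of 4 arrays. The groups are called vector, NLRP4 and NOD1, without or with DOX. No label says that the wells of a group were separate cultures, so the p-values rest on well-to-well spread that may be technical only. The wells followed a pre-assigned order that was not randomized, and each line formed its own run of array numbers. Differences of line or DOX and differences of plate position cannot be told apart.

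Integrins are membrane receptors made of an α and a β subunit, and each α pairs with a limited set of β subunits. The β2 subunit (ITGB2) joins αL (ITGAL) to form LFA-1, which binds ICAMs, and joins αM (ITGAM) and αX (ITGAX) to form the complement receptors of myeloid cells. The β1 subunit (ITGB1) joins α4 (ITGA4) to form VLA-4, which binds VCAM1 and fibronectin, α5 (ITGA5) to form the fibronectin receptor, and α6 (ITGA6) to form a laminin receptor. Monocytes use these receptors to stop on endothelium, to cross it and to crawl in tissue. Talin and kindlin switch integrins on from inside the cell, and kinases and adaptor proteins carry the signal back from the bound receptor.

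Promoter sequences are shown for the β1 family, because its α subunits moved in opposite directions in the NOD1 line. RefSeq promoter windows of build GRCh38.p14 matched 6 of the 10 genes, with 8 windows in all. The windows run from 250 bases before a transcript start to 50 after it. ITGAL, ITGAX, ITGB2 and ITGB3 had no entry. The 250 bases before the start follow, 5′ to 3′ on the gene's strand, for ITGA4 (chr2:181457136-181457385, plus strand), ITGA5 (chr12:54419267-54419516, minus strand), the second ITGA6 window (chr2:172427336-172427585, plus strand) and the second ITGB1 window (chr10:32958231-32958480, minus strand). Capitals mark letters matched by 1 of 4 short motifs on either strand, where the whole match lies before the start. The 1 match that crosses a start, at the end of the ITGA5 sequence, is left in lower case.
ITGA4: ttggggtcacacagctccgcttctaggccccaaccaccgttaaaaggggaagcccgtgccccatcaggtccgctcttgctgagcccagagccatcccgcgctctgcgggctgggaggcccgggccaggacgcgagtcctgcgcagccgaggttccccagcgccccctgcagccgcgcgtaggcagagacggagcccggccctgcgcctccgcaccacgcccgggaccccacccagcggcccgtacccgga
ITGA5: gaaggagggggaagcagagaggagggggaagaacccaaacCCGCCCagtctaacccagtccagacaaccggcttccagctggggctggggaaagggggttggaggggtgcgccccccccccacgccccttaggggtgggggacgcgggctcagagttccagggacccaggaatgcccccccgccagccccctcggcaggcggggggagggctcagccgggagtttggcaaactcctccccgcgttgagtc
ITGA6: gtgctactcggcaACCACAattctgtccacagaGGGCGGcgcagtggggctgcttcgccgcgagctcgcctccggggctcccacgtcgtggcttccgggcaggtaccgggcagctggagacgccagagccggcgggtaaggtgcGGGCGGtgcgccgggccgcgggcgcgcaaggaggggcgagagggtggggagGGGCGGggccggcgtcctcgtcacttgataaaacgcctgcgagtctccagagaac
ITGB1: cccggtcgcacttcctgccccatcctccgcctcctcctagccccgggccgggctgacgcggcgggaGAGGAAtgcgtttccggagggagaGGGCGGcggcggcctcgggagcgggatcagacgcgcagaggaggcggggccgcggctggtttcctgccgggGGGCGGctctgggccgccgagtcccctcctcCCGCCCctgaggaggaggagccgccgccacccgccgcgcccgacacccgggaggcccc
The motifs searched were GAGGAA (the core bound by PU.1, the myeloid master regulator), TGTGGT (RUNX), GGGCGG (SP1) and TGANTCA (AP-1). In the 4 printed sequences no match overlapped another. In the ITGAM window, after the start, a TGTGGT match and a GAGGAA match on the other strand shared 1 base. GAGGAA was in 27.9% of all 35116 windows of this length and in 3 of the 8 integrin windows, those of ITGAM, ITGB1 and ITGB7. TGTGGT was in 13.1% of all windows and in 3 of 8, of ITGAM and both overlapping windows of ITGA6, where it is the same site. GGGCGG was in 45.0% of all windows and in 5 of 8, and the match in the first ITGA6 window is the same site as a match in the second. TGANTCA was in 7.71% of all windows and in 1 of 8, across the transcript start of ITGA5. The ITGA4 window held none of the 4. A match is a description of letters, and the arrays measured no binding.

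The labels were checked on the induced genes. NOD1 signal went from 8.74 ± 0.19 to 12.75 ± 0.18 (log2, mean ± SD, n = 4) in the NOD1 line with DOX, and NLRP4 signal from 8.09 ± 0.43 to 11.93 ± 0.26 in the NLRP4 line. Without DOX, NOD1 was already 0.40 higher in the NOD1 line than in vector (limma, adjusted p = 0.0299). NLRP4 was higher in the uninduced NLRP4 line (8.09) than in vector (6.92, under the low end of the signal), by at least 1.07-fold (limma, adjusted p = 0.0405). Of 15 monocyte markers 13 were measured, and 11 of them lay above the low end of the signal in all vector and NLRP4 groups, among them CSF1R, LYZ, SPI1 and CD68. CD14 and MPO lay below it there. The low end, 7.997 log2, is the 90th percentile of the mean signal of 341 olfactory receptor genes and stands in for a background that was not measured. Deposited array medians ran from 8.06 to 8.85, and the 4 dimmest arrays were replicate 2 of vector without DOX, replicate 1 of NLRP4 without DOX, replicate 4 of NOD1 with DOX and replicate 2 of NOD1 without DOX. Values below are therefore quantile-normalized log2 signals unless stated otherwise. Signal depends on each probe set, so levels of different genes are not compared. In bulk RNA, a change in the share of cells that express a gene and a change per cell cannot be told apart.

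In the NOD1 line, ITGAL, ITGB2 and ITGA5 were higher and ITGA4 and ITGA6 lower than in vector, with and without DOX. Without DOX the first 3 were higher by 0.64 to 0.89 log2, and ITGA4 was at -0.86. A gene was called when its Benjamini-Hochberg adjusted p over all 18417 genes was under 0.05. Without DOX, 6 of 10 integrin genes were called between the NOD1 line and vector, against 24.9% of all genes. With DOX, 6 of 10 were called, against 25.8% of all genes. Both shares include genes under the low end in all 6 groups. With those genes left out, 4574 of 13676 were called without DOX and 4759 of 13676 with DOX, which are larger shares. ITGAL, ITGB2, ITGA5, ITGA4 and ITGA6 were called in both comparisons with the same sign. The groups of these 2 comparisons share no arrays, but the comparisons are not independent. Both set the same NOD1 line against the same vector line, and all 24 arrays were normalized together and shared an estimate of the spread. The median difference of the 10 genes was 0.14 without DOX and 0.17 with DOX, beside 0.03 and 0.025 for all genes.

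**Figure D1:**
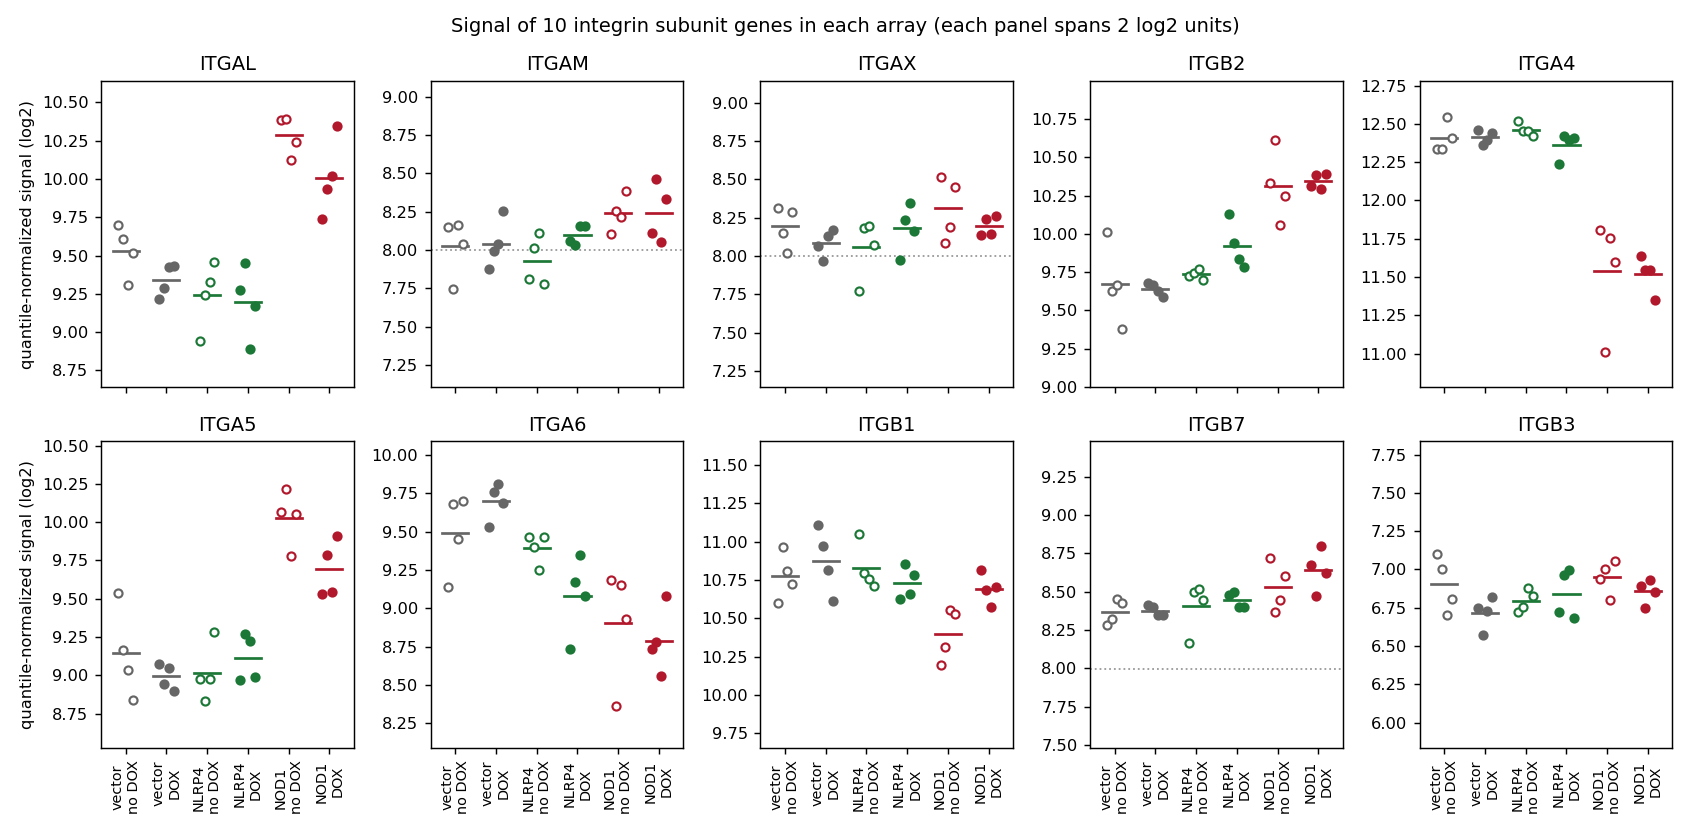
Quantile-normalized log2 signal (vertical axis) of the 10 integrin genes in each of the 24 arrays, by line and DOX (horizontal axis). Open points are arrays without DOX, filled points arrays with DOX, short lines group means and the dotted line the low end of the signal at 7.997. In ITGA4 all 8 NOD1 arrays sit between 11.01 and 11.81, below the other 16.

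ITGAL, the α subunit of LFA-1, was higher in the NOD1 line. The 4 vector arrays without DOX read 9.70, 9.61, 9.30 and 9.52, and the 4 NOD1 arrays without DOX read 10.39, 10.39, 10.12 and 10.24. The groups did not overlap, and the difference was 0.75 (SE 0.13, 1.69-fold, limma adjusted p = 0.000107). With DOX, vector read 9.22, 9.29, 9.43 and 9.43, and the NOD1 line read 9.74, 9.93, 10.02 and 10.34. All 4 NOD1 arrays were again above all 4 vector arrays, by 0.67 on average (SE 0.13, limma adjusted p = 0.000373). The NLRP4 line read 8.94, 9.24, 9.33 and 9.46 without DOX and 9.28, 9.45, 8.89 and 9.17 with DOX, overlapping the vector arrays or under them. The order of group means ran from NLRP4 with DOX (9.20) and without (9.24) through vector with DOX (9.34) and without (9.53) to NOD1 with DOX (10.01) and without (10.29). Neighbours in that order overlapped, except for the step of 0.48 between vector without DOX and NOD1 with DOX.

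ITGB2, the β subunit shared by ITGAL, ITGAM and ITGAX, which need it to reach the cell surface, was higher in the NOD1 line too. Vector without DOX read 10.01, 9.63, 9.66 and 9.38, and NOD1 without DOX read 10.33, 10.62, 10.06 and 10.24. The highest vector array lay just under the lowest NOD1 array, and the difference was 0.64 (SE 0.11, 1.56-fold, limma adjusted p = 0.000109). With DOX the separation was wider. Vector read 9.68, 9.67, 9.63 and 9.59 with DOX, and NOD1 read 10.31, 10.38, 10.29 and 10.39, a difference of 0.70 (SE 0.11, limma adjusted p = 3.58e-05). The NLRP4 line read 9.72, 9.75, 9.77 and 9.70 without DOX and 10.13, 9.94, 9.84 and 9.78 with DOX. Those 4 DOX arrays lay above the vector DOX arrays by 0.28, but the adjusted p was 0.705.

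ITGAM and ITGAX, which mark mature myeloid cells and stand side by side on chromosome 16, lay close to the low end of the signal. Group means of ITGAM were 8.02 and 8.04 in vector, 7.93 and 8.10 in NLRP4, and 8.24 and 8.24 in NOD1, without and with DOX in that order. Its single arrays ran from 7.74 to 8.46, and every pair of neighbouring groups overlapped. ITGAM was 0.22 higher in the NOD1 line than in vector without DOX (95% interval -0.0067 to 0.44, adjusted p = 0.16) and was not called. Against the NLRP4 line without DOX it was 0.31 higher (limma adjusted p = 0.0343, at least 1.18-fold), and that call was lost under 9 of 15 other settings, among them without replicate 1 or 4 of NLRP4 or replicate 2, 3 or 4 of NOD1 (adjusted p from 0.05 to 0.111). Group means of ITGAX ran from 8.05 in NLRP4 without DOX to 8.31 in NOD1 without DOX. Its difference between NOD1 and vector was 0.12 without DOX (95% interval -0.10 to 0.34) and 0.11 with DOX (-0.11 to 0.33), and it was called in no comparison. These intervals do not reach the differences of ITGAL, 0.75 without DOX and 0.67 with DOX. Near the low end, however, changes of ITGAX may be understated, so the genes cannot be compared on this basis.

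ITGA4, the α subunit of VLA-4, was lower in the NOD1 line by more than any other of the 10 genes without DOX. Vector without DOX read 12.34, 12.33, 12.55 and 12.40, and vector with DOX 12.46, 12.36, 12.40 and 12.44. The NLRP4 line stayed in the same band, with 12.52, 12.45, 12.45 and 12.42 without DOX and 12.23, 12.42, 12.40 and 12.40 with DOX. The NOD1 line read 11.81, 11.01, 11.75 and 11.60 without DOX and 11.64, 11.54, 11.54 and 11.35 with DOX. No NOD1 array overlapped any array of the other lines, and the lowest, replicate 2 without DOX, is 1 of the 4 dim arrays. The difference from vector was -0.86 without DOX (SE 0.12, 1.82-fold lower, limma adjusted p = 5.43e-06). With DOX it was -0.90 (SE 0.12, limma adjusted p = 3.12e-06).

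ITGA5, the α subunit of the fibronectin receptor, moved the other way. Vector without DOX read 9.54, 9.16, 9.04 and 8.84, and NOD1 without DOX read 10.07, 10.22, 9.78 and 10.06. The 4 NOD1 arrays lay above the 4 vector arrays, and the difference was 0.89 (SE 0.13, 1.85-fold, limma adjusted p = 1.67e-05). With DOX, vector read 9.07, 8.95, 9.05 and 8.90, and NOD1 read 9.53, 9.78, 9.55 and 9.91. That difference was 0.70 (SE 0.13, limma adjusted p = 0.000228), again with no overlap. The NLRP4 line read 8.97, 8.84, 8.98 and 9.29 without DOX and 8.97, 9.27, 9.23 and 8.99 with DOX, overlapping the vector arrays.

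ITGA6, the α subunit of a laminin receptor, was lower in the NOD1 line, with more spread. Vector without DOX read 9.14, 9.68, 9.46 and 9.70, and NOD1 without DOX read 9.18, 8.37, 9.15 and 8.93. These groups overlapped, and the difference was -0.59 (SE 0.16, limma adjusted p = 0.00731). Without the 4 dimmest arrays it was -0.33 (adjusted p = 0.115) and no longer called, and with only the arrays compared in the fit its adjusted p was 0.0512. With DOX, vector read 9.53, 9.76, 9.81 and 9.69, and NOD1 read 8.73, 8.78, 8.56 and 9.08. There the groups did not overlap, and the difference was -0.91 (SE 0.16, 1.88-fold lower, limma adjusted p = 0.000111). The NLRP4 line read 9.46, 9.40, 9.25 and 9.46 without DOX and 8.73, 9.17, 9.35 and 9.08 with DOX. All 4 NLRP4 arrays with DOX lay under the vector arrays with DOX, by 0.61 on average, but the adjusted p over all genes was 0.385.

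ITGB1, the β subunit shared by ITGA4, ITGA5 and ITGA6, was lower in the NOD1 line without DOX. Vector without DOX read 10.60, 10.97, 10.81 and 10.72, and NOD1 without DOX read 10.20, 10.31, 10.56 and 10.53. The groups did not overlap, and the difference was -0.38 (SE 0.11, 1.30-fold lower, limma adjusted p = 0.0114). The call was lost without replicate 2 of vector (-0.31, adjusted p = 0.0517) or without replicate 1 of NOD1 (-0.31, adjusted p = 0.0503), and without the 4 dimmest arrays the difference was -0.28 (adjusted p = 0.113). With DOX, vector read 11.11, 10.97, 10.81 and 10.61, and NOD1 read 10.81, 10.68, 10.57 and 10.71, which overlap. That difference was -0.18 (95% interval -0.41 to 0.04, adjusted p = 0.25). Group means of the NLRP4 line, 10.83 without DOX and 10.73 with DOX, lay between those of the vector line with DOX (10.88) and the NOD1 line with DOX (10.69).

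ITGB7, a β subunit that pairs with ITGA4 in a gut-homing receptor, varied little. Group means ran from 8.37 in vector without DOX to 8.64 in NOD1 with DOX, and single arrays from 8.16 to 8.80. It was 0.27 higher in NOD1 than in vector with DOX (limma adjusted p = 0.0278), where the 4 NOD1 arrays lay above the 4 vector arrays. The call was lost in deposited values (0.19, adjusted p = 0.503) and after median centring (0.24, limma adjusted p = 0.0829). It was also lost when replicate 3 or 4 of vector with DOX, or replicate 1 or 3 of NOD1 with DOX, was left out (adjusted p from 0.0615 to 0.108). ITGB3, which pairs with αIIb on platelets and with αV elsewhere, was below the low end of the signal in every group, with arrays from 6.57 to 7.10. It was called in no comparison, and no fold is given.

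**Figure D2:**
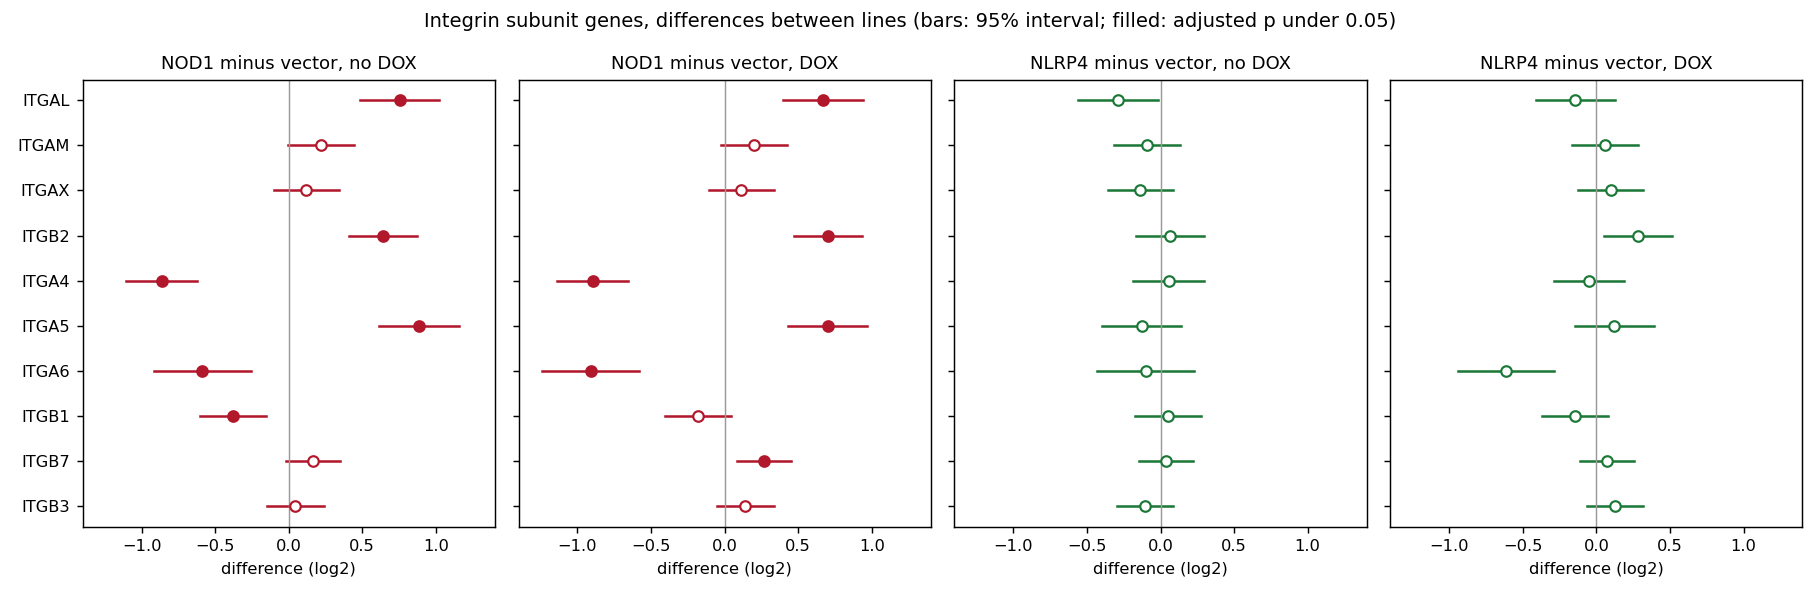
Log2 differences (horizontal axis) of the 10 integrin genes (vertical axis) between the NOD1 or NLRP4 line and vector, without and with DOX. Points are limma estimates, bars 95% intervals, and filled points have an adjusted p under 0.05. In the NOD1 panels 6 of 10 points are filled each, in the NLRP4 panels none.

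Against the NLRP4 line the NOD1 line showed a similar set of differences, from the same NOD1 arrays. Without DOX, 7 of 10 integrin genes were called, against 27% of all genes. ITGAL was 1.04 higher, ITGA5 1.01 and ITGB2 0.58, and ITGA4 was at -0.92. ITGA6 (-0.49, adjusted p = 0.0239) and ITGB1 (-0.43, adjusted p = 0.00394) were lower, and without the 4 dimmest arrays neither was called (-0.27, adjusted p = 0.202, and -0.32, adjusted p = 0.0615). ITGA6 also lost its call without replicate 2 of NOD1 (-0.30, adjusted p = 0.14) and without replicate 1 or 4 of NLRP4 (adjusted p = 0.0593 and 0.056). The same held in deposited values (-0.345, limma adjusted p = 0.187) and with only the arrays compared in the fit (-0.50, limma adjusted p = 0.0535). With DOX, 4 of 10 were called, against 25.4% of all genes. They were ITGAL (0.81), ITGB2 (0.42), ITGA5 (0.58) and ITGA4 (-0.85), each with an adjusted p of 0.00594 or less. ITGAL, ITGB2, ITGA5 and ITGA4 kept their calls and signs in all 4 comparisons of the NOD1 line under each of the 15 other settings tried.

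Between the NLRP4 line and vector no integrin gene passed the test. Without DOX, 0 of 10 were called, against 0.0163% of all genes. In limma 1 of 10, against 4.96% of all genes, had an unadjusted p under 0.05. It was ITGAL, at -0.29 (95% interval -0.56 to -0.02). With DOX, 0 of 10 were called, against 0.038% of all genes. Here 2 of 10, ITGA6 and ITGB2, had an unadjusted p under 0.05, against 6.11% of all genes. Over the 10 genes the 95% intervals ran from -0.559 to 0.295 without DOX and from -0.942 to 0.51 with DOX. In ITGA4, ITGA5, ITGAL and ITGB2 they did not reach the NOD1 line's difference from vector, without or with DOX. In ITGA6 with DOX the interval, -0.94 to -0.29, holds the NOD1 line's difference of -0.91.

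DOX itself left no integrin gene called in any line. In the NOD1 line 0 of 10 were called with DOX against without, beside 0.0109% of all genes. In limma 3 of 10, against 5.77% of all genes, had an unadjusted p under 0.05. ITGB1 was at 0.30 (95% interval 0.07 to 0.52, adjusted p = 0.741), with the 4 DOX arrays above the 4 uninduced arrays. ITGA5 was at -0.34 (95% interval -0.61 to -0.07, adjusted p = 0.761) and ITGAL at -0.28 (-0.55 to -0.01, adjusted p = 0.852), both with overlapping arrays. ITGA4 was at -0.02 and ITGB2 at 0.03, with intervals of -0.26 to 0.21 and -0.20 to 0.26. In the NLRP4 line 0 of 10 were called, beside 0.0163% of all genes. There 0 of 10, against 8.05% of all genes, had an unadjusted p under 0.05. ITGA6 had the largest size there, -0.31 (95% interval -0.64 to 0.02). In vector 0 of 10 were called, beside 0% of all genes. There 0 of 10, against 622 (3.38%) of all genes, had an unadjusted p under 0.05. Averaged over the 3 lines, 0 of 10 were called, beside 0.0271% of all genes. Here 1 of 10, against 5.56% of all genes, had an unadjusted p under 0.05, ITGAL at -0.17 (adjusted p = 0.875).

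**Figure D3:**
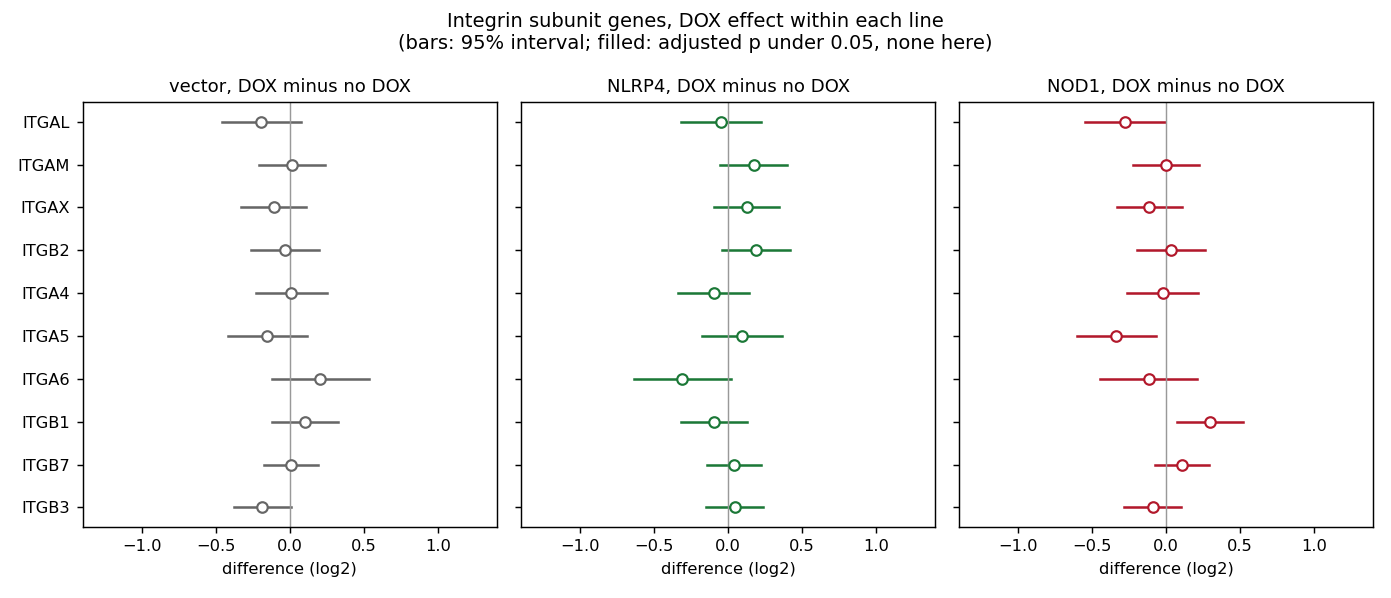
Log2 difference with DOX against without DOX (horizontal axis) of the 10 integrin genes (vertical axis) in vector, NLRP4 and NOD1 cells. Points are limma estimates and bars 95% intervals. No point is filled, since no adjusted p is under 0.05, and the largest size is -0.34 for ITGA5 in the NOD1 line.

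The DOX effect was also compared between lines. Between the NOD1 line and vector 0 of 10 genes were called for a difference in DOX effect, beside 0.00543% of all genes. In limma 0 of 10, against 4.05% of all genes, had an unadjusted p under 0.05. Between the NLRP4 line and vector 0 of 10 were called, beside 0.00543% of all genes. Here 1 of 10, against 4.92% of all genes, had an unadjusted p under 0.05, ITGA6 at -0.51 (adjusted p = 0.939). Between the NOD1 and NLRP4 lines 0 of 10 were called, beside 0.0109% of all genes. An unadjusted p under 0.05 was found for 2 of 10, against 8.01% of all genes. Of the 2 genes there with an unadjusted p under 0.05, ITGA5 was at -0.43 (adjusted p = 0.594) and ITGB1 at 0.39 (adjusted p = 0.538). Over the 10 genes the 95% intervals ran from -0.788 to 0.512 for the NOD1 line against vector. They ran from -0.978 to 0.627 for NLRP4 against vector and from -0.812 to 0.711 for NOD1 against NLRP4. These intervals are wide, so genes that were not called were not shown to have equal DOX effects.

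Differences between subunits within an array are not changed by a shift common to all genes of that array, but quantile normalization does change them. They were read from the deposited values, with the range after normalization beside each pair. The pairs were chosen after their values were seen and are given with no test. Such a difference shows unequal change of the 2 genes, not their relative amounts. ITGA5 minus ITGA4 read -2.55, -3.71, -3.58 and -3.61 in vector without DOX and -3.45, -3.30, -3.37 and -3.50 with DOX. In the NOD1 line it read -1.57, -0.80, -1.97 and -1.47 without DOX and -2.02, -1.69, -1.90 and -1.45 with DOX. All 8 NOD1 arrays were above all 8 vector arrays and above the NLRP4 arrays, which ran from -3.78 to -2.92. After normalization NOD1 arrays ran from -2.11 to -0.79, vector arrays from -3.56 to -2.80 and NLRP4 arrays from -3.62 to -3.13. ITGB2 minus ITGB1 averaged -1.19 ± 0.48 in vector without DOX and -1.27 ± 0.18 with DOX (SD, n = 4). It averaged -0.085 ± 0.37 and -0.34 ± 0.10 in the NOD1 line. In the NLRP4 line it averaged -1.19 ± 0.19 without DOX and -0.76 ± 0.23 with DOX. NOD1 arrays ran from -0.50 to 0.31 and vector arrays from -1.63 to -0.51, so these lines met but did not overlap, while 1 NLRP4 array with DOX, at -0.45, lay inside the NOD1 range. After normalization NOD1 arrays ran from -0.50 to 0.30, vector arrays from -1.43 to -0.59 and NLRP4 arrays from -1.32 to -0.49. ITGAL minus ITGAX ran from 1.14 to 1.66 in vector and from 1.60 to 2.45 in the NOD1 line, with a small overlap, and after normalization from 1.15 to 1.46 and from 1.60 to 2.31, with none. ITGAL minus ITGAM overlapped more widely, with 1.12 to 2.04 in vector and 1.45 to 2.28 in NOD1, and 1.14 to 1.87 and 1.47 to 2.28 after normalization. ITGA6 minus ITGA4, 2 genes that were both lower, overlapped between the lines, with -3.17 to -2.55 in vector and -2.92 to -2.31 in NOD1, and -3.20 to -2.58 and -2.99 to -2.27 after normalization.

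**Figure D4:**
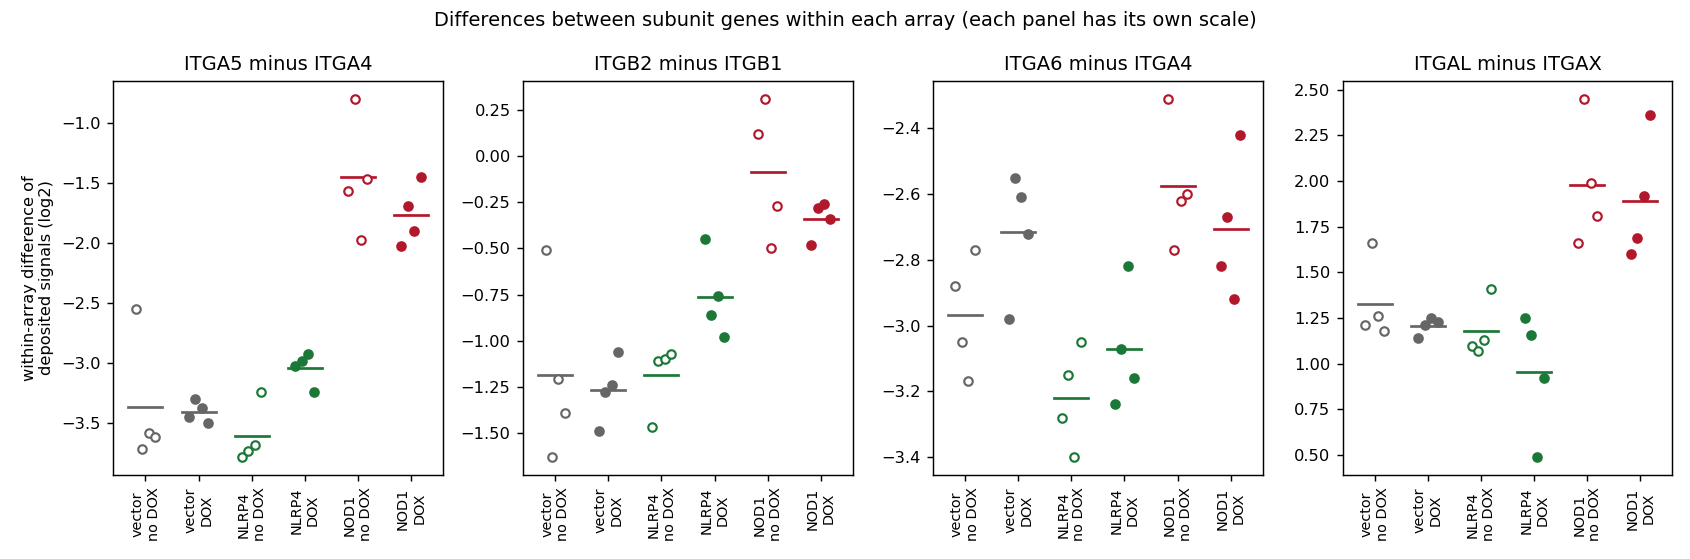
Within-array differences of deposited log2 signals (vertical axes, a scale per panel) for 4 pairs of integrin genes, by line and DOX (horizontal axis). Open points are arrays without DOX, filled points arrays with DOX, and short lines group means. For ITGA5 minus ITGA4 the NOD1 arrays lie from -2.02 to -0.80, above the other 16 arrays, which lie from -3.78 to -2.55.

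The rest of the integrin pathway was read from 6 lists, described by counts and medians in NOD1 against vector without DOX, where the median over all genes was 0.03. Over all genes 24.9% were called, 2399 higher and 2193 lower, and after centring arrays on their medians 1398 of 3831 calls were higher. With DOX 25.8% of all genes were called, 2502 higher and 2244 lower. These shares include genes under the low end in all 6 groups, and with those left out the shares were larger. Of the 15 other integrin subunits measured, 1 was higher and 2 were lower (20% called, against 24.9% of all genes). ITGA9 was at 0.37 and ITGAV, the αV subunit of vitronectin receptors, at -0.53 (limma adjusted p = 0.0135), while ITGA3 was at -0.30 with the NOD1 group under the low end (at least 1.13-fold). In deposited values none of these 3 was called, ITGAV lost its call without replicate 2 of NOD1, and ITGA3 lost it without replicate 2 or 4 of either line. With DOX 1 of 15 was called (6.67%, against 25.8% of all genes), ITGAV at -0.43. This call was lost in deposited values (adjusted p = 0.137) and without any of the 4 vector arrays or replicate 1 or 2 of NOD1. The median of the list was 0.0018 without DOX.

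Among 28 integrin ligands, 4 were higher and 2 lower without DOX (21.4% called, against 24.9% of all genes). Those higher were LAMC1 (1.10), NID1 (1.10), C3 (1.28, at least 2.11-fold) and SPP1 (1.00, at least 1.25-fold). LAMC1 is a laminin chain and NID1 a basement membrane protein that binds laminin, both outside the cell. C3 is the complement protein whose fragment is bound by αMβ2 and αXβ2, and SPP1 (osteopontin) is a ligand of αV and α4 integrins. Those lower were ICAM2 (-0.22, limma adjusted p = 0.0459) and JAM2 (-0.28, limma adjusted p = 0.0253, with both groups under the low end). In deposited values the split was 4 higher and 0 lower. With DOX, 5 were higher and 0 lower (17.9% called, against 25.8% of all genes). They were led by LAMC1 (1.05, limma adjusted p = 2.17e-06) and NID1 (1.03, limma adjusted p = 1.76e-05), and without replicate 2 of vector 3 were higher and 0 lower. The list's median, 0.06, lay near that of all genes.

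Among 22 genes of inside-out activation, 9 were higher and 1 lower (45.5% called, against 24.9% of all genes), and the median was 0.20. TLN1, the talin that binds β subunit tails, was at 0.55 (limma adjusted p = 0.000664). RAPGEF1, an exchange factor for RAP1, was at 0.63 (limma adjusted p = 0.000415), but at 0.19 and not called (adjusted p = 0.209) when all its probe sets were averaged. ITGB1BP1, which binds the β1 tail and opposes talin, was at 0.37, and its call was lost when arrays were centred on their medians (0.25, adjusted p = 0.285). RASGRP3, an exchange factor for RAS and RAP, was at 0.53 with both groups under the low end, so no fold is given. With DOX the split was 7 higher and 3 lower (45.5% called, against 25.8% of all genes), 5 and 0 after median centring, and 2 and 2 in deposited values. It was 4 and 2 without replicate 4 of vector and 3 and 1 without replicate 2 of NOD1. TLN1 was at 0.62 and RASGRP3 at 0.60 there.

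Among 30 genes of outside-in signalling and the adhesion complex, 13 were higher and 1 lower (46.7% called, against 24.9% of all genes). The median was 0.205. ACTN1, an actin cross-linker of adhesion sites, was at 0.79 (limma adjusted p = 4.92e-05) and VAV1, an exchange factor for RAC, at 0.76 (limma adjusted p = 6.86e-05). PARVG, a parvin of the ILK complex in blood cells, was at 0.54, and VAV3, a relative of VAV1, was the gene that was lower, at -0.63. With DOX 15 were higher and 2 lower (56.7% called, against 25.8% of all genes), with VAV3 at -0.79 and PARVG at 0.72.

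Among 18 membrane partners of integrins, 8 were higher and 3 lower (61.1% called, against 24.9% of all genes), and the median was 0.20. CAV1, the caveolar coat protein, was at 1.83 (at least 2.76-fold, limma adjusted p = 1.26e-09) and SLC3A2, the CD98 heavy chain that binds β1 tails, at 0.97 (limma adjusted p = 1.38e-06). The tetraspanin CD53 was at -1.08 and CD36, a thrombospondin receptor, at -0.68. Without the 4 dimmest arrays the split was 4 higher and 3 lower. With DOX it was 6 higher and 3 lower (50% called, against 25.8% of all genes), with CAV1 at 2.05 (at least 2.93-fold) and SLC3A2 at 0.78. Among 10 genes of selectins and rolling, B4GALT1 (0.47) and ST3GAL4 (0.66), which build selectin ligands, were higher and none was lower. That is 20% called, against 24.9% of all genes. With DOX, B4GALT1 alone was called (10%, against 25.8% of all genes), at 0.64 (limma adjusted p = 5.72e-05).

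**Figure D5:**
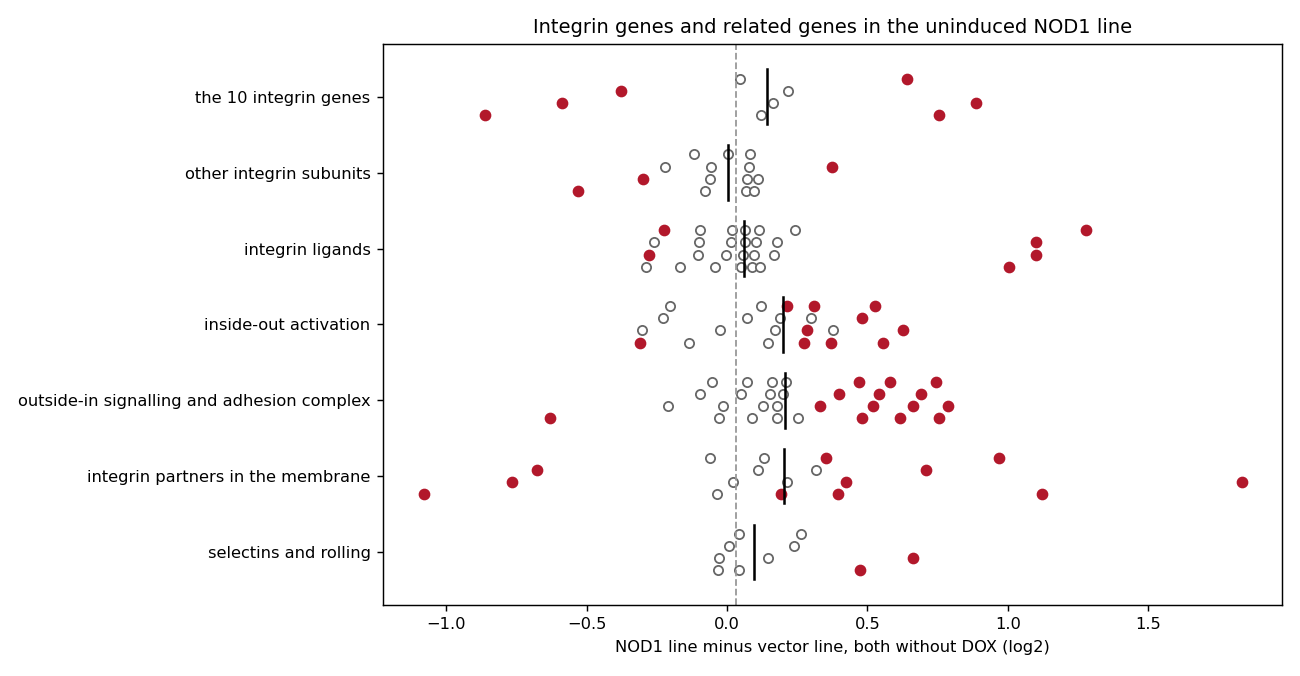
Log2 differences between the NOD1 line and vector without DOX (horizontal axis) for the 10 integrin genes and the measured genes of 6 related lists (vertical axis, points spread for visibility). Filled red points have an adjusted p under 0.05, black bars are list medians, and the dashed line is the median of all genes at 0.03. In the 10 integrin genes 3 points lie on each side among the called ones, while 13 of the 14 called adhesion complex genes lie to the right.

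Against the NLRP4 line without DOX the list genes with the lowest p were CAV1 (1.77, at least 2.76-fold), NID1 (1.59), LAMC1 (1.12) and SLC3A2 (0.98), with the NOD1 line higher in each. ITGAV was at -0.60 (limma adjusted p = 0.00467) in that comparison. In the NLRP4 line with DOX, CD36 was the only list gene called against vector (-0.81, limma adjusted p = 0.000141), and that call was lost in deposited values (-0.69, adjusted p = 0.136). CD36 signal was 9.14 ± 0.15 there and 9.95 ± 0.15 in vector with DOX (log2, SD, n = 4). No gene of the 6 lists was called for DOX within a line or for a difference of DOX effects.

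Monocyte markers differed with the line as well. In NOD1 against vector, 11 of 13 monocyte markers were higher and 1 lower without DOX, and 10 higher and 1 lower with DOX. The lower one was CD36, at -0.68 without DOX and -0.58 with DOX. Over all genes 24.9% were called without DOX and 25.8% with DOX. The mean signal of the 13 ran from 10.38 to 10.59 over the vector arrays and from 10.83 to 10.96 over the NOD1 arrays without DOX. CD14, which was below the low end of 7.997 in vector and NLRP4, was barely above it in NOD1 without DOX (8.008, at least 1.01-fold over vector). In NOD1 with DOX, CD14 was under it (7.978). The part of the monocyte markers in the integrin differences was not tested. For T and NK cells 6 of 8 markers, CD3D, CD3E, CD3G, CD2, CD8A and GNLY, were under the low end in all 6 groups, and the list mean ran from 7.83 to 8.03 in vector and from 8.02 to 8.10 in NOD1 without DOX. NKG7, above the low end in all 6 groups, was higher in NOD1 than in vector without DOX (0.38, limma adjusted p = 0.00642) and with DOX (0.33, limma adjusted p = 0.0166). GNLY was the other of the 2 of 8 called without DOX (limma adjusted p = 0.0287), with both groups under the low end, and NKG7 was the 1 of 8 called with DOX. The 2 of 8 lay near the share over all genes and the 1 of 8 under it. Of 4 B cell markers measured, CD79A, CD79B and PAX5 lay above the low end in all 6 groups and MS4A1 under it. Of 5 platelet markers, GP9, GP1BA and ITGA2B lay above it in all 6 groups and PF4 and PPBP under it. Of 5 fibroblast markers, COL1A1, COL1A2, COL3A1 and PDGFRB lay above it in all 6 groups. Of 6 epithelial markers, KRT8, KRT18, KRT19 and PAX2 lay above it in all 6 groups, and EPCAM in the vector and NLRP4 groups. Signal above the low end was thus not limited to the monocyte list. Means of the B, platelet and fibroblast lists lay from 7.74 to 8.35 over all arrays with 0 called in either NOD1 comparison with vector. In the epithelial list 1 of 6 was lower without DOX, EPCAM (at least 2.02-fold, limma adjusted p = 0.00129), and 2 with DOX, EPCAM (at least 1.71-fold) and KRT8 (-0.36).

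For the 3 integrin genes whose group means spanned most, the genes most like them over the 24 arrays are given as a description. These correlations include differences between groups, and after group means were subtracted r for the same pairs ran from 0.421 to 0.897. ITGAL (span 1.09) was closest to TRIP13 (Pearson r = 0.937), CDK4 (0.927) and NID1 (0.925). ITGA5 (span 1.04) was closest to S100A11 (0.94), AGPAT2 (0.937) and VCP (0.934). ITGA4 (span 0.94) was closest to PPIP5K2 (0.986), BDP1 (0.985) and SMC2 (0.984). ITGAL, ITGA5 and ITGA4 had wider spans of group means than 96.7%, 96% and 94.6% of all genes, and ITGAX and ITGB3 than 43.1% and 37.1%. ITGAD, the next integrin gene beside ITGAM and ITGAX on chromosome 16, was at 0.0018 without DOX and 0.06 with DOX in NOD1 against vector. COX6A2, PYDC1 and TRIM72, also close coding genes there, were not called. SLC5A2 and TGFB1I1 were read too but are not among the closest coding genes on either side. SLC5A2 was called (0.28 without DOX and 0.40 with DOX) and TGFB1I1 was not.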

How the data were processed

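Total RNA of 24 THP-1 samples was measured, 1 array each. The file holds deposited log2 signals for each probe set, made with RMA and oligo per the submitters' processing notes. Versions, annotation build and step order were not given in the sources used here. Of 33297 probe sets, 19460 carried a single gene symbol in the platform annotation, and 19429 of these were updated through Entrez IDs with RefSeq GRCh38.p14. The brightest probe set stood for each of 18417 genes; each integrin gene had 1. Because deposited array medians differed, gene values were quantile-normalized between arrays, which removes any overall brightness difference, real or technical. Group means of all 24 arrays were fitted with limma 3.58.1 in R 4.3.3 (18 residual degrees of freedom), in 13 comparisons, with Benjamini-Hochberg adjustment over all genes and a threshold of 0.05. Precision is limited by the 4 arrays in a group. The fit was tested on simulated data.

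The 10 genes and all lists were chosen with earlier results of these data known. Named list genes are those called with the lowest p, at most 4 per list in NOD1 against vector without DOX and 2 elsewhere. The lower ligands ICAM2 and JAM2 are named besides. A fold against a group under the low end was computed against that end and is written "at least". The genes read around ITGAM and ITGAX were set by name. ITGAD, COX6A2, PYDC1 and TRIM72 are among the closest coding genes by position, and TGFB1I1 and SLC5A2 are not. Alternatives were deposited values, median centring, averaged probe sets, a filter on dim genes, array weights, a fit of the compared arrays alone, leaving out each array, and, chosen after seeing the data, leaving out the 4 dimmest. Promoter windows came from RefSeq GRCh38.p14.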

Additional observations from a re-analysis of the deposited data

Results flagged for a closer look

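In ITGA4, replicate 1 of the NLRP4 line with DOX read 12.235, below the other 3 arrays of its group, which lay from 12.395 to 12.419. Its gap to the nearest array was 0.869 of the group's range, above Dixon's 95% critical value for 4 samples. This was 1 flag among 60 groups of 4 values tested, and chance flags about 1 in 20 groups. The flagged value is still above all 8 NOD1 arrays of ITGA4.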

How the results depend on the processing

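Of 25 integrin results followed under 375 settings, 346 kept their direction and side of the threshold, 27 were no longer called, 2 became called and 0 changed sign. Without the 4 dimmest arrays, 4 integrin genes rather than 7 were called between NOD1 and NLRP4 without DOX, from a fit with fewer arrays. Leaving out single arrays gave 5 to 6 called for NOD1 against vector without DOX, 5 to 6 with DOX, 5 to 7 for NOD1 against NLRP4 without DOX, and 4 to 4 with DOX. In the 9 comparisons with 0 called, all settings gave 0. Lost calls concerned ITGA6, ITGB1, ITGAM and ITGB7. ITGAX became called against NLRP4 without DOX when replicate 2 of NOD1 was left out (0.33, adjusted p = 0.0309), and ITGA6 against NLRP4 with DOX without the 4 dimmest arrays (-0.38, adjusted p = 0.0412). Beyond the array count and settings named here, the cause was not tested. Of 55 results on list genes under 823 settings, 788 were kept, 35 lost their call and 0 changed sign. In deposited values the median of all genes shifted by 0.12 for NOD1 against NLRP4 without DOX and by -0.21 with DOX, where 1523 of 5200 calls were higher, against 2465 of 4684 after quantile normalization. No paired analysis was possible because the labels give the groups no shared replicate numbers. ITGB3 was left out by the filter on dim genes, and with signal near the low end small changes of ITGAM, ITGAX and ITGB3 may be understated.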
